A study of Bos grunniens with 12 samples.

Results

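CatSper is the calcium channel of the sperm tail, and its subunits are encoded by the genes whose symbols start with CATSPER. In the deposited table of gene expression 9 of 20953 identifiers carried such a symbol. They were CATSPER2, CATSPER3 and CATSPERB, CATSPERD and CATSPERG with 1 identifier each, and CATSPER4 and CATSPERE with 2 identifiers each. The symbols CATSPER1, CATSPERZ, CATSPERH and CATSPERQ were not among them, so no gene was analysed under these names. The rule that picks the members reads the symbol and uses no measured value, although the channel was singled out with earlier results of these data known. Of the 9 identifiers, 7 passed the filter on low values (a mean of at least 0.5 FPKM over the 6 libraries) and were tested, CATSPER4 (ENSBGRG00000005983) was below it, and CATSPERE (ENSBGRG00000009367) was listed at 0 in every library.

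Testes of 6 healthy yaks were studied, 3 aged 1.5 years and given as not yet sexually mature (Y group) and 3 aged 5 years and given as mature (M group), with an m6A immunoprecipitated library and an input library from each animal. The values below are those of the 6 input libraries, which were made without immunoprecipitation and serve as RNA-seq. Neither group received a treatment. The Y testes were taken by castration and the M testes after slaughter, so age and the way of collection cannot be told apart. The groups follow the age in the sample titles. The stage field of the record named the opposite stage for all 12 samples, and the record uses the letters M and Y the other way round from their use here. If the ages in the titles were exchanged, every direction given below would turn.

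CatSper opens at alkaline pH inside the sperm tail and lets calcium in, which drives the vigorous whip-like beat (hyperactivation) that sperm need to reach and enter the egg. The pore is built from CATSPER1, CATSPER2, CATSPER3 and CATSPER4, which are different proteins with 1 place each in the ring. Around it stand auxiliary subunits with large extracellular domains, beta (CATSPERB), gamma (CATSPERG), delta (CATSPERD) and epsilon (CATSPERE), and small intracellular partners such as EFCAB9, a calcium sensor. In mammals the channel genes are transcribed in germ cells of the testis, most of them during and after meiosis, and the channel is laid down along the principal piece of the tail while spermatids elongate. Male mice that lack a pore subunit are infertile.

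The deposited unit is FPKM, a fragment count divided by transcript length and by the mapped total, so levels of different genes can be compared per length. The FPKM of a library summed to between 116187 and 139921. By an estimate from steps between very low values, the FPKM of 1 fragment was in its highest library 1.1 times that in its lowest. Only genes within a log2 ratio of 0.3 to Y replicate 1 entered this estimate. A library further than that from Y replicate 1 in depth could not have been found by it. Testis germ cells were detected at both ages. Late spermatid markers were high in the Y libraries, which were given as not yet mature, and this goes against that label. The chromatin protein gene TNP1 was at 883, 852 and 879 FPKM in Y replicates 1 to 3 and at 201, 641 and 550 FPKM in M replicates 1 to 3. Replicate 1 of the M group stood apart from the other libraries in this and in many other germ cell genes, and the estimates of the members and the medians of the gene lists are given below with and without it.

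CATSPERG was the highest member and CATSPER4 the lowest of those tested. Averaged over the 6 libraries, CATSPERG was at 21.1 FPKM (above 93.7% of the genes in the table), CATSPER3 at 9.33, CATSPERE at 6.11 and CATSPERD at 3.84 FPKM. CATSPER2 followed at 2.10 FPKM, CATSPERB at 1.42 and CATSPER4 (ENSBGRG00000005907) at 0.657 FPKM. The pore subunit genes thus ranged widely in level, with CATSPER3 far above CATSPER4, and the auxiliary genes likewise, with CATSPERG far above CATSPERB. Within a library this order held in all 6 libraries for each neighbouring pair, except that CATSPER2 was above CATSPERB in 5 of 6. In the Y group the ranges of no neighbouring pair overlapped. In the M group those of CATSPER3 and CATSPERE, CATSPERE and CATSPERD, CATSPERD and CATSPER2, and CATSPER2 and CATSPERB did overlap, so across animals these neighbours could not be set apart there by their ranges, although within a library their order held as counted above.

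**Figure D1:**
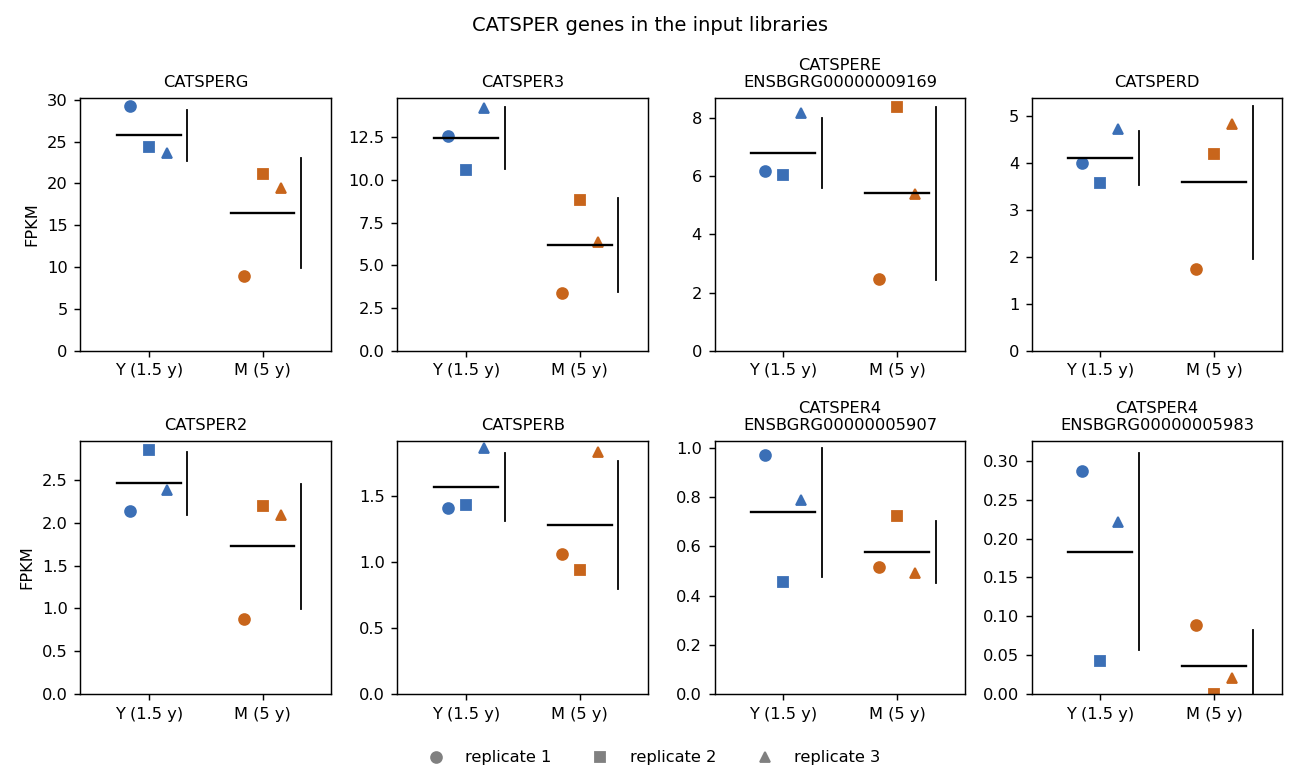
FPKM (vertical axis, from 0) of the 8 CATSPER identifiers above 0 in the 3 Y and 3 M input libraries, with the replicate shown by the shape of the point, a bar for the mean and a vertical line for the SD (cut at 0). CATSPER3 and CATSPERG are the 2 panels in which every M point lies below every Y point, and M replicate 1 is the lowest point in 5 of the panels.

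Of the 3 tested pore subunit genes, CATSPER3 (ENSBGRG00000001979) had the largest estimated difference between the ages on the log2(FPKM + 0.1) scale. It was at 12.6, 10.6 and 14.2 FPKM in Y replicates 1, 2 and 3 and at 3.38, 8.83 and 6.38 FPKM in M replicates 1, 2 and 3. All M libraries were below all Y libraries, with M replicate 1 lowest and M replicate 2 nearest to the Y group. The mean was 12.5 ± 1.84 FPKM (SD, n = 3) in the Y group and 6.20 ± 2.73 FPKM (SD, n = 3) in the M group, or 49.7% of the Y mean. On the log2(FPKM + 0.1) scale the M group was lower by an estimated -1.09 (standard error 0.33, 95% interval -1.88 to -0.30), with an unadjusted p of 0.0135 and an adjusted p of 0.154 from limma with Benjamini-Hochberg adjustment over the 12437 genes tested. An exact permutation test gave p = 0.1, the smallest value that 3 against 3 animals allow. Without M replicate 2 the estimate was -1.39 and its limma adjusted p was 0.0294, but 19.3% of all genes tested then had an adjusted p under 0.05, against 0.0322% with all libraries. Without M replicate 1 the estimate was -0.71 (limma adjusted p = 0.172).

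CATSPER2 (ENSBGRG00000012305), another pore subunit, was at 2.14, 2.86 and 2.39 FPKM in the Y group and at 0.878, 2.20 and 2.10 FPKM in the M group. Here M replicates 2 and 3 lay at the lower edge of the Y range and only replicate 1 was well below it. The log2 estimate was -0.58 (standard error 0.35, 95% interval -1.40 to 0.24, limma adjusted p = 0.313), and it was -0.18 without M replicate 1.

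CATSPER4 was the least abundant of the 3 tested pore subunit genes and, on the log2(FPKM + 0.1) scale, the most scattered within the Y group. ENSBGRG00000005907 was at 0.972, 0.454 and 0.788 FPKM in Y replicates 1 to 3 and at 0.515, 0.724 and 0.493 FPKM in M replicates 1 to 3. The lowest of the 6 libraries was Y replicate 2, and the groups overlapped. Its log2 estimate was -0.27 (standard error 0.35, 95% interval -1.10 to 0.56, limma adjusted p = 0.632). It rested on single Y libraries, with -0.07 without Y replicate 1 and -0.54 without Y replicate 2, and it was -0.21 without M replicate 1. The second identifier with this symbol, ENSBGRG00000005983, was at 0.287, 0.0421 and 0.221 FPKM in the Y group and at 0.0884, 0 and 0.021 FPKM in the M group. After the differences in depth estimated above were taken out, its values were 13, 2, 11, 4, 0 and 1 times the lowest value above 0. These are in the order of libraries given, each within 0.05 of a whole number. These look like counts of single fragments, so the values rest on very little sequence, and the groups overlapped (exact permutation p = 0.2). Its M mean was 19.9% of its Y mean, a lower share than that of CATSPER3, but it was under the filter. A gene table of another yak assembly (RefSeq, Bosgru_T2T1.0) lists 1 gene each for CATSPER4 and CATSPERE, and how reads were divided between identifiers that share a symbol is not known from the files.

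Of the auxiliary subunits, gamma came closest to CATSPER3. CATSPERG (ENSBGRG00000026648) was at 29.2, 24.4 and 23.6 FPKM in the Y group and at 8.89, 21.1 and 19.4 FPKM in the M group. All M libraries were below all Y libraries, although replicates 2 and 3 were only a little below. The mean in the M group was 16.5 ± 6.63 FPKM (SD, n = 3), or 64.0% of the 25.7 ± 3.05 FPKM (SD, n = 3) of the Y group. The log2 estimate was -0.73 (standard error 0.33, 95% interval -1.50 to 0.04, limma adjusted p = 0.212), with an exact permutation p of 0.1, and it was -0.34 without M replicate 1.

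CATSPERE and CATSPERD separated the M animals from each other rather than the ages. The name of CATSPERE rests on its symbol alone, since its deposited gene ontology terms are of transposition and reverse transcription. The deposited terms of CATSPER3 and CATSPERB do not name the channel either. CATSPERE (ENSBGRG00000009169) was at 6.19, 6.04 and 8.18 FPKM in the Y group and at 2.46, 8.40 and 5.40 FPKM in the M group. Its highest and lowest libraries were both of the M group. The log2 estimate was -0.47 (standard error 0.41, 95% interval -1.44 to 0.49, limma adjusted p = 0.471), and without M replicate 1 the estimate was 4.4e-05. CATSPERD (ENSBGRG00000001388) was at 4.0, 3.57 and 4.71 FPKM in the Y group and at 1.74, 4.18 and 4.82 FPKM in the M group. Again the extremes were M libraries, replicate 1 the lowest and replicate 3 the highest. The log2 estimate was -0.30 (standard error 0.37, 95% interval -1.16 to 0.56, limma adjusted p = 0.606), and it turned to 0.14 without M replicate 1.

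The beta subunit, measured at low levels, did not have M replicate 1 as its lowest library, and neither did CATSPER4. CATSPERB (ENSBGRG00000016580) was at 1.41, 1.43 and 1.86 FPKM in the Y group and at 1.06, 0.94 and 1.83 FPKM in the M group. The lowest library was M replicate 2, in which most of the other members were near the Y level, and M replicate 3 was nearly as high as the highest Y library. Its log2 estimate was -0.32 (standard error 0.29, 95% interval -0.99 to 0.35, limma adjusted p = 0.48). It was -0.15 without M replicate 2, -0.59 without M replicate 3 and -0.22 without M replicate 1.

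**Figure D2:**
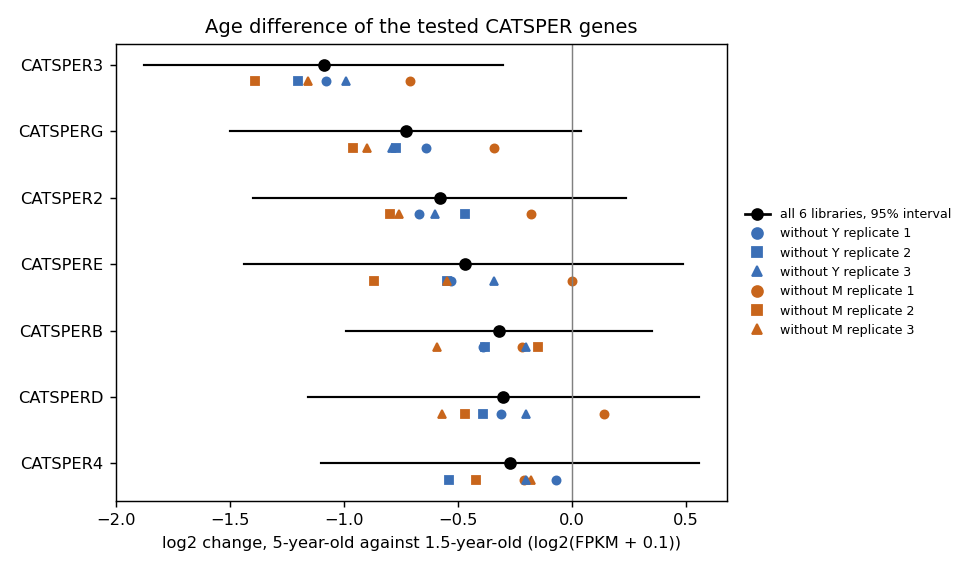
Log2 change of the 7 tested CATSPER genes in the 5-year-old against the 1.5-year-old yaks (horizontal axis, log2(FPKM + 0.1)), with the limma estimate and 95% interval in black and, below each, the estimates that leave out 1 library. All 7 estimates lie below 0, the interval of CATSPER3 alone stays below 0, and without M replicate 1 the points move to the right, those of CATSPERE and CATSPERD to 0 and above.

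Counted together, 7 of the 7 tested members had an estimate below 0, against 46.5% of all genes tested. None had a limma adjusted p under 0.05, as was the case for all but 4 of the 12437 genes, or 0.0322% (0.0161% in the lower direction). An unadjusted p under 0.05 was reached by 1 member (CATSPER3), against 25.1% of the genes tested and 10.9% in the lower direction. Groups that do not overlap were found for 2 of the 7, CATSPER3 and CATSPERG, both lower in the M group, and for 13.9% of all genes in that direction. The median estimate of the 7 members was -0.47, and that of all genes tested was 0.04. Without M replicate 1 the number of members with an estimate below 0 was 5 of the 7, against 43.9% of all genes tested in that fit. CATSPERE was then at 4.4e-05 and CATSPERD at 0.14.

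Leaving out 1 library changed these counts mainly through the M group. Without M replicate 2 the members with an unadjusted p under 0.05 were 3, against 40.1% of the genes tested, and without M replicate 1 they were 2, against 18.5%. Without M replicate 3 the count was 1 (15.9% of the genes tested), and it was also 1 without Y replicate 1 (14.2%), Y replicate 2 (16.8%) or Y replicate 3 (13.4%). CATSPER3 without M replicate 2 was the one member to reach an adjusted p under 0.05 from limma in these fits. The share of all genes that did so was 0.0482% without M replicate 1, 0.0161% without M replicate 3, Y replicate 1 or Y replicate 2, and 0% without Y replicate 3.

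The M animals differed among themselves more than the Y animals did. Set against the Y mean on the log2(FPKM + 0.1) scale, the median of the 7 members was -1.38 in M replicate 1, -0.15 in replicate 2 and -0.32 in replicate 3, while the Y libraries were between -0.16 and 0.20. The median of all genes tested was 0.03, 0.02 and 0.09 in the same M libraries. The median member was thus far from the median gene in replicate 1 and nearer to it in the other M libraries. Single members were spread there, from -0.67 (CATSPERB) to 0.32 (CATSPERE) in replicate 2 and from -0.95 (CATSPER3) to 0.24 (CATSPERD) in replicate 3. M replicate 1 was the lowest of the 6 libraries for 5 of the 7 members, against 35.5% of all genes tested. Of the Y mean it held 27.1% for CATSPER3, 34.5% for CATSPERG, 35.6% for CATSPER2, 36.1% for CATSPERE and 42.5% for CATSPERD. The 2 members with low expression were higher in it, with 67.3% for CATSPERB and 69.8% for CATSPER4.

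Markers of spermatids were also lowest in M replicate 1. In M replicate 2 the median round spermatid marker was at -0.21 against the Y mean and the median member at -0.15, although CATSPERB was lowest there. In M replicate 3 the median round spermatid marker was at -1.51 and the median elongating spermatid marker at -0.66. The median member was at -0.32 in that library, with CATSPER3 at -0.95 and CATSPERD at its highest. The summed level of 6 round spermatid markers (ACRV1, SPACA1, TSSK1B, CREM, SPACA4 and TEX29) was 374, 318 and 410 FPKM in the Y libraries and 90.5, 314 and 159 FPKM in M replicates 1, 2 and 3. The acrosome gene ACRV1 alone was at 39.9, 34.4 and 60.1 FPKM in the Y libraries and at 11.6, 41.6 and 12.8 FPKM in the M libraries. Of elongating spermatid markers 3 of 8 were measured (TNP1, HMGB4 and GAPDHS), and their sum was 1102 to 1128 FPKM in the Y libraries and 254, 807 and 699 FPKM in the M libraries. The 9 spermatocyte markers summed to 94.6 to 99.6 FPKM in the Y libraries and to 79.6 to 98.5 FPKM in the M libraries. Their median log2 estimate was 0.03, with 4 below 0 and 5 above (46.5% of all genes tested were below 0). The highest of these estimates was that of SYCP3, a protein of the meiotic chromosome axis, at 0.32 (limma adjusted p = 0.314). Spermatogonia, Sertoli cell and peritubular markers had their highest sums in M replicate 1, where most members were lowest. For 6 spermatogonia markers the sum was 58.2 to 66.4 FPKM in the Y libraries and 139, 71.0 and 83.9 FPKM in M replicates 1 to 3, and for 4 Sertoli cell markers it was 15.5 to 18.8 and 39.4, 23.1 and 30.3 FPKM. The 6 peritubular and stromal markers summed to 24.1 to 25.4 FPKM in the Y libraries and to 31.9 to 55.8 FPKM in the M libraries. Without M replicate 1 the median estimate was -0.81 for the round and -0.55 for the elongating spermatid markers, 0.16 for spermatogonia, 0.60 for Sertoli cells and 0.70 for peritubular and stromal cells. In such bulk samples, fewer spermatids and less RNA per spermatid cannot be told apart, and the part of cell composition in the age difference of the members was not tested.

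**Figure D3:**
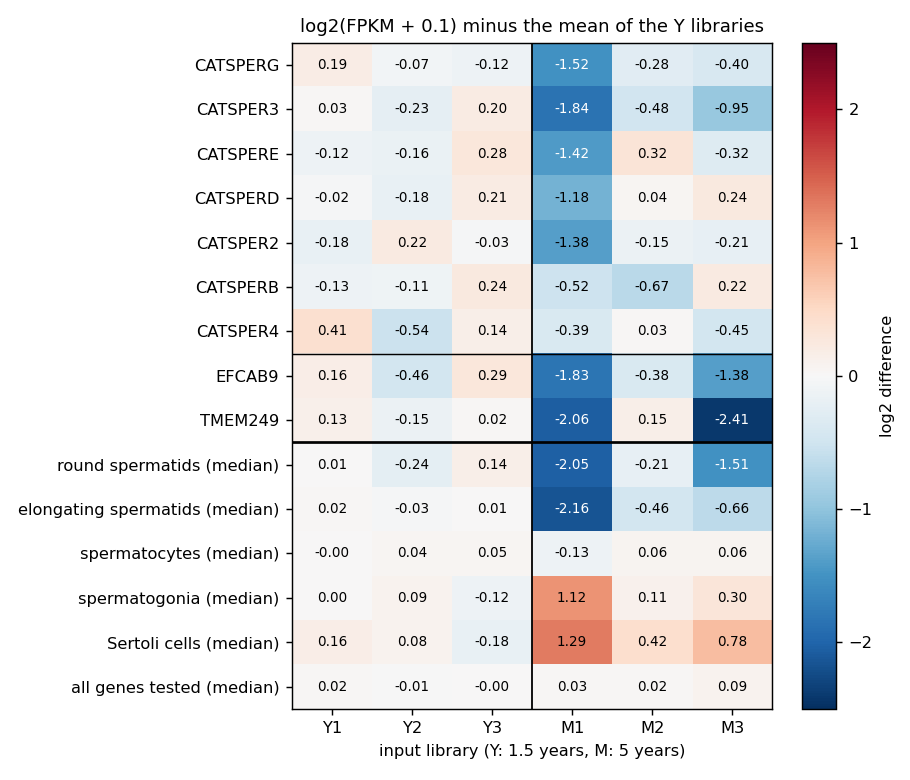
Difference of each input library from the mean of the Y libraries, in log2(FPKM + 0.1), for the 7 tested CATSPER genes, the partners EFCAB9 and TMEM249, and the medians of marker lists and of all genes tested. Blue is lower and red higher, and M replicate 1 holds most of the blue in the CATSPER rows and in the spermatid rows, while the spermatocyte row stays between -0.13 and 0.06.

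Set against the round spermatid markers of the same library, the levels of CATSPER3 overlapped between the ages. Its FPKM was 3.37%, 3.32% and 3.47% of the round spermatid sum in the Y libraries and 3.74%, 2.81% and 4.01% in M replicates 1, 2 and 3. The groups overlapped, and the mean log2 ratio differed by 0.04. CATSPERG was at 7.81%, 7.68% and 5.74% in the Y libraries and at 9.82%, 6.72% and 12.2% in the M libraries, also with overlap. CATSPERE and CATSPERD, on the other hand, were higher relative to these markers in every M library. CATSPERE was at 1.65% to 1.99% in the Y group and at 2.68% to 3.39% in the M group, and CATSPERD was at 1.07% to 1.15% and at 1.33% to 3.03%. The elongating spermatid sum gave another picture for CATSPERG, which was at 2.59%, 2.22% and 2.12% of it in the Y libraries and at 3.5%, 2.62% and 2.78% in the M libraries, without overlap. CATSPER2, CATSPERE and CATSPERD were also above their Y values in every M library against that sum, while CATSPER3 (0.959% to 1.28% and 0.912% to 1.33%), CATSPERB and CATSPER4 overlapped. This comparison was chosen after the levels had been seen, its markers were themselves lower in the M group, and it stands as a description without a test.

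**Figure D4:**
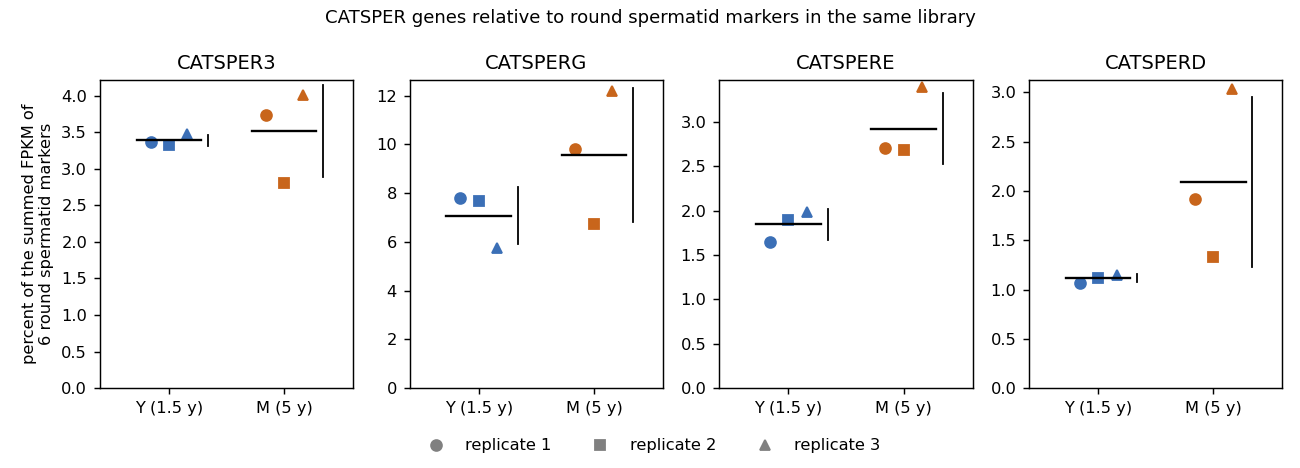
FPKM of 4 CATSPER genes as a percent of the summed FPKM of 6 round spermatid markers in the same library (vertical axis, from 0), by group, with the mean as a bar and the SD as a line. The Y and M points of CATSPER3 overlap between 2.81% and 4.01%, while all M points of CATSPERE and CATSPERD lie above their Y points.

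CATSPER3, the member with the lowest estimate, was set against each other member within the same libraries, 6 comparisons in all. Since it was the extreme member, the sign of every difference was fixed in advance, and the values are a description. The log2 ratio of CATSPER3 to CATSPERD was 1.54 to 1.63 in the Y libraries and 0.40 to 1.06 in the M libraries, a difference in change of -0.79. For CATSPERE the ratio was 0.79 to 1.02 in the Y group and 0.07 to 0.45 in the M group, a difference in change of -0.62. Against CATSPERG the difference in change was -0.36 and against CATSPER4 it was -0.82, and in these 4 comparisons the groups did not overlap. No p-value is given for them, and 3 against 3 animals could not go below 0.1 in an exact permutation test. The ratios of CATSPER3 to CATSPER2 (difference -0.51) and to CATSPERB (difference -0.77) overlapped between the groups. Of the summed FPKM of the 7 members, CATSPER3 made up 21.4% to 25.5% in the Y libraries and 15.8% to 19.0% in the M libraries.

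Of the small partners of the channel, EFCAB9 and TMEM249 were measured, and C2CD6, SLCO6C1 and TMEM262 were not analysed here. EFCAB9 (ENSBGRG00000016153), whose protein joins calcium and pH sensing to the pore, was at 5.52, 3.56 and 6.04 FPKM in the Y group and at 1.31, 3.75 and 1.82 FPKM in the M group. Replicate 2 of the M group lay within the Y range and the other 2 were well below it. Its log2 estimate was -1.20 (standard error 0.39, unadjusted p = 0.0168 and adjusted p = 0.157 from limma), and -0.88 without M replicate 1. TMEM249 (ENSBGRG00000013404), a transmembrane auxiliary protein of the channel, was at 7.88, 6.48 and 7.27 FPKM in the Y group and at 1.65, 7.98 and 1.27 FPKM in the M group. Its M libraries split, with replicate 2 above every Y library and replicates 1 and 3 at 22.9% and 17.6% of the Y mean. The log2 estimate was -1.44 (standard error 0.61, limma adjusted p = 0.2), and -1.13 without M replicate 1.

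A wider list of sperm genes, some of which act on the conditions under which CatSper opens, was mostly lower by estimate as well. Of 13 genes of sperm ion transport, pH and cyclic AMP signalling, 11 passed the filter, 10 had an estimate below 0, 7 of these an unadjusted p under 0.05, and none an adjusted p under 0.05 from limma. Over all genes tested, 46.5% had an estimate below 0 and 10.9% an unadjusted p under 0.05 in the lower direction. The median estimate of the list was -1.16, and M replicate 1 was the lowest library for 9 of the 11 (35.5% of all genes). Without that library the median was -0.60, with 10 estimates still below 0 (43.9% of all genes in that fit). An unadjusted p under 0.05 was then reached by 5 of these, against 8.51% of all genes in the lower direction. LRRC52, the partner of the sperm potassium channel, was at 2.48, 2.41 and 2.31 FPKM in the Y group and at 0.547, 0.916 and 0.516 FPKM in the M group. It was the gene of this list with the lowest p (log2 estimate -1.76, standard error 0.25, unadjusted p = 0.00019 and adjusted p = 0.129 from limma), and its M libraries were all low, replicate 2 included. The pore of the same potassium channel, KCNU1, had an estimate of -1.25 (adjusted p = 0.171) with overlapping groups. ADCY10, the bicarbonate-sensing cyclase that makes cyclic AMP in sperm, had an estimate of -0.84 (adjusted p = 0.237), and SLC9C1, the sperm sodium and proton exchanger, one of -0.37 (adjusted p = 0.395).

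ABHD2, the progesterone-dependent lipase that removes a brake on human CatSper, was at 60.6, 54.2 and 65.9 FPKM in the Y group and at 22.5, 47.6 and 34.9 FPKM in the M group, without overlap (log2 estimate -0.84, limma adjusted p = 0.157). The sperm sodium pump ATP1A4 (-1.27), the egg-activating phospholipase PLCZ1 (-1.56), the channel gene PKD2L1 (-1.26) and the secretory protein gene CRISP2 (-1.16) did not overlap either (13.9% of all genes tested in that direction), and their adjusted p-values were between 0.156 and 0.183. SLC26A8, an anion transporter of the sperm tail, had an estimate of -0.42 (adjusted p = 0.334). ATP2B4, a calcium pump that clears calcium from sperm and also acts in somatic cells, was the gene in the opposite direction. It was at 3.91, 3.26 and 3.25 FPKM in the Y group and at 6.94, 4.35 and 5.43 FPKM in the M group (log2 estimate 0.65, limma adjusted p = 0.154). HVCN1 (0.179 and 0.349 FPKM on average in the Y and M groups) and TRPV4 (0.38 and 0.358 FPKM) were under the filter and were not tested.

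In the fibrous sheath and the rest of the tail, among which CatSper is laid down, 8 of 17 listed genes were measured. All 8 had an estimate below 0 with a median of -0.97, 5 had an unadjusted p under 0.05, none had an adjusted p under 0.05 from limma, and M replicate 1 was the lowest library for all 8. The shares over all genes tested were 46.5% below 0, 10.9% lower at an unadjusted p under 0.05 and 35.5% with M replicate 1 lowest. Without that library all 8 were still below 0, with a median of -0.58 and 6 at an unadjusted p under 0.05, none at an adjusted one. Over all genes in that fit, 43.9% were below 0 and 8.51% were lower at an unadjusted p under 0.05. The anchoring protein AKAP3 was at 63.7, 53.4 and 64.7 FPKM in the Y group and at 15.1, 46.1 and 27.9 FPKM in the M group (log2 estimate -1.16, adjusted p = 0.157). The dense fibre genes ODF1 (-1.40, adjusted p = 0.182) and ODF2 (-0.78, adjusted p = 0.217) and the tektins TEKT1 (-0.86), TEKT2 (-1.08), TEKT3 (-0.57) and TEKT5 (-1.32), with adjusted p-values between 0.154 and 0.371, had the same order of M libraries, with replicate 1 lowest and replicate 2 highest. GSTM3, a glutathione transferase, had the smallest difference of the 8 (-0.27, adjusted p = 0.364).

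Voltage-gated calcium channels of other families share the voltage-sensing design of the pore. Of 9 measured pore genes only CACNA1D and CACNA1H reached the filter. CACNA1D, an L-type pore, was at 0.933 and 0.908 FPKM on average in the Y and M groups, with a log2 estimate of -0.04 (standard error 0.28, limma adjusted p = 0.937) that was 0.11 without M replicate 1. CACNA1H, a T-type pore, stood on 2 identifiers that went in opposite directions. ENSBGRG00000026596 was at 5.62, 5.28 and 4.44 FPKM in the Y group and at 15.3, 7.72 and 10.9 FPKM in the M group (log2 estimate 1.08, adjusted p = 0.154, and 0.83 without M replicate 1). ENSBGRG00000007021, looked at after the values of the first were known, was at 6.22 FPKM on average in the Y group and at 3.21 FPKM in the M group (log2 estimate -0.96, adjusted p = 0.168). The other 7 (CACNA1A, CACNA1B, CACNA1E, CACNA1F, CACNA1G, CACNA1I and CACNA1S) averaged between 0.00214 and 0.568 FPKM in the Y group and between 0.00697 and 0.372 FPKM in the M group.

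The genes most like CATSPER3 across the 6 libraries were found by the root mean square difference of log2(FPKM + 0.1) after each gene was centred on its own mean. The nearest of 12436 genes were LRFN5 (0.049), TTLL11 (0.064), FAM20A (0.072), TSSK1B (0.079) and CPEB3 (0.084), and the median over all genes tested was 0.744. LRFN5 was at 12.1, 10.6 and 14.5 FPKM in the Y group and at 3.61, 9.31 and 6.68 FPKM in the M group, almost the values of CATSPER3 itself. TSSK1B encodes a testis-specific kinase of spermatids and is also in the round spermatid list, and TTLL11 encodes an enzyme that adds glutamate chains to tubulin. The other CATSPER genes were less near, and since CATSPER3 had the lowest estimate among them, their order is a description. CATSPERG had a difference of 0.260 and rank 586, CATSPERE 0.335 and rank 1081, CATSPER2 0.358 and rank 1271, CATSPERD 0.444 and rank 2045, CATSPER4 0.555 and rank 3371, and CATSPERB 0.620 and rank 4262. The partner EFCAB9, at 0.210 and rank 340, was nearer to CATSPER3 than any other tested CATSPER gene, and AKAP3 had rank 23. Among the members themselves the closest pair was CATSPERG and CATSPER2 (0.210) and the most distant CATSPER3 and CATSPERB (0.620).

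No CATSPER identifier carried a differential m6A peak. The deposited comparison of the ages held 1438 differential peaks on 1207 genes, and 9.29% of the 12437 tested genes had at least 1 such peak, beside 0 of the 7 tested members. Over the whole table the share was 5.63%, beside 0 of the 9 members. The peak table lists differential peaks without values per animal, so it says nothing on peaks that the ages share. Of the other listed genes of the channel and tail, TEKT5 and CACNA1H each had 1. The peak on TEKT5 ran from 37205925 to 37213878 on chromosome 26 of LU_Bosgru_v3.0 (7954 bp, annotated to exon 1 of 8), and that on CACNA1H (ENSBGRG00000026596) from 46862093 to 46862343 on the same chromosome (251 bp, exon 8 of 34).

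The deposited gene ontology terms covered the channel in part. The term CatSper complex stood on 4 of the 9 identifiers, those of CATSPER2, CATSPERD, CATSPERG and the more abundant CATSPER4. CATSPER3 and CATSPERB carried only the terms nucleus and cytoplasm, CATSPERE carried terms of transposition and reverse transcription, and the CATSPERE identifier listed at 0 carried terms of nucleotide exchange and vesicle transport. The less abundant CATSPER4 identifier carried no term.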

How the data were processed

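Per the labels and methods, reads were cleaned with Trimmomatic and SortMeRNA, mapped with HISAT2 2.0.4 to LU_Bosgru_v3.0 (Ensembl release 99), and only unique alignments were kept. FPKM values, 1 per gene and input library, were deposited by the authors, and the program behind them is not given in the sources used here. Differential peaks were called with MeTDiff and annotated with ChIPseeker, and their width in bp was used as deposited by the authors. The 6 immunoprecipitated libraries, the peak lists of the single groups and the reads were not analysed here.

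The ages were compared on log2(FPKM + 0.1) for the 12437 genes whose mean reached 0.5 FPKM, with limma 3.58.1 (R 4.3.3, eBayes with a trend). P-values were two-sided, with Benjamini-Hochberg adjustment over all these genes. This scale understates the change of low genes. Single genes were also tested with exact permutation tests, two-sided (scipy 1.17.1 under Python 3.11.15). Tables were handled in pandas 2.3.3 and numpy 2.4.6, and plots drawn in matplotlib 3.10.9. Depth was compared between libraries through the steps of genes with very low FPKM, within a log2 ratio of 0.3 to Y replicate 1. The number of fragments is unknown. The fit was tested on simulated data of 3 against 3 libraries. Of 200 genes given a log2 change of 1, 22 (11%) reached an adjusted p under 0.05 from limma. Of 200 given a log2 change of 2, 133 (66.5%) did, among 140 genes called. The simulated noise was independent between genes, with no shift shared by the genes of a library. In the simulations 5.5% to 7.09% of genes had an unadjusted p under 0.05 from limma, against 25.1% in the data. The shares recovered need not hold for the data.

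The members and gene lists were chosen with earlier results of these data known. Genes named are every CATSPER identifier, the lists of channel partners, sperm ion transport, tail and other calcium channels, the markers TNP1, PRM1 (not analysed here), ACRV1 and SYCP3, and the 5 genes nearest to CATSPER3. Where a symbol stood on several identifiers (3871 symbols), the one with the highest mean was taken. Marker lists also covered Leydig cells, macrophages, endothelial and erythroid cells. Alternatives were other pseudocounts, filters, scalings and forms of eBayes, a replicate block and each library left out in turn.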

Additional observations from a re-analysis of the deposited data

How the results depend on the processing

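With all 6 libraries, no pseudocount (1 or 0.01), filter, scaling, form of eBayes or replicate block turned the direction of a tested CATSPER gene or gave it an adjusted p under 0.05 from limma. Scaling the libraries to the same sum of FPKM moved the median of all genes from 0.04 to 0.17, and the estimate of CATSPER3 was then -0.96. CATSPER3 lay between -1.14 and -0.96 over these settings (adjusted p 0.136 to 0.207) and between -1.39 and -0.71 when 1 library was left out (adjusted p 0.0294 to 0.374). Leaving out 1 library gave -0.57 to 0.14 for CATSPERD and -0.87 to 4.4e-05 for CATSPERE, with the upper end without M replicate 1. It gave -0.59 to -0.15 for CATSPERB and -0.54 to -0.07 for CATSPER4. Lists without M replicate 1 were added after the data had been seen. The members with an adjusted p under 0.05 numbered 0 to 1 over the fits without 1 library, and those with an unadjusted p under 0.05 numbered 1 to 3, and 2 after centring on the library median. The count of all genes with an adjusted p under 0.05 was 4, and it was 2 with a mean of at least 1 FPKM or a pseudocount of 0.01, 9 without a trend, 8 with no filter, 1 with the replicate block, and 0 to 2403 without 1 library (0 without Y replicate 3, when 1662 genes had an unadjusted p under 0.05, and 2403 without M replicate 2). The count at an unadjusted p under 0.05 was 3123 and ranged from 1662 to 4992 without 1 library. The cause of these shifts was not tested.

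The replicate numbers of the titles do not pair animals, since the 6 input libraries came from 6 different yaks. Deviations from the group mean correlated across genes at -0.02, -0.09 and 0.01 for same-numbered libraries, and at -0.13 to 0.14 for differently numbered ones. Whether libraries of the same number shared a step of processing was not tested. With the replicate block the estimate of CATSPER3 was -1.09 (limma adjusted p = 0.207). The number of fragments behind each FPKM is not given, so the counting error of the low members is unknown.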

Other observations

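Marker lists of cells outside the seminiferous epithelium were measured in the same input libraries as the CATSPER genes. The 2 measured Leydig cell markers (STAR and CYP11A1) summed to 10.1, 19.1 and 10.7 FPKM in Y replicates 1 to 3 and to 7.40, 8.40 and 7.87 FPKM in M replicates 1 to 3. The 4 measured macrophage markers summed to 16.0, 16.4 and 15.7 FPKM in the Y libraries and to 5.84, 11.3 and 8.56 FPKM in the M libraries, and AIF1 made up most of that sum. The 5 endothelial markers summed to 7.09 to 9.39 FPKM in the Y libraries and 8.12 to 11.6 FPKM in the M libraries. The 1 measured erythroid marker, ALAS2, was between 0.0819 and 0.825 FPKM in the Y libraries and between 0.242 and 0.666 FPKM in the M libraries. Of these lists, 2 Leydig cell, 4 macrophage and 4 endothelial genes were tested, and none had an adjusted p under 0.05 from limma. An unadjusted p under 0.05 was reached by 3 (STAR, CD163 and AIF1), all lower in the M group. Over all genes tested the share was 25.1%, and 10.9% in the lower direction. The lists were split, with log2 estimates of 0.58 for CSF1R, 0.00 for CD68 and 0.12 for CYP11A1.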
